A study of Mus musculus with 10 samples.

Results

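*Cilp* and *Cilp2*, the genes of the cartilage intermediate layer proteins, were followed as 2 of the 29183 genes listed for both the *Grem1* and the *Lepr* lineage of single hind limb cells, and all UMIs (unique molecular identifiers, each standing for 1 captured RNA molecule) assigned to them were used. Both genes are secreted matrix glycoproteins of cartilage. CILP is known from the middle zone of articular cartilage, where its amino-terminal part binds TGF-beta and dampens its signalling and its carboxy-terminal part resembles a nucleotide pyrophosphohydrolase. CILP2 is its paralogue, and less is known of its function. The question was whether both paralogues mark the same lineage, the same cell group and, within a group, the same cells.

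The mice were C57BL/6. *Grem1-TdT* mice carry a tamoxifen-inducible Cre under *Grem1* control and a TdTomato reporter. At 5 to 6 weeks of age they received tamoxifen chow for 2 weeks, after which articular and growth plate cartilage was excised, digested with collagenase type II and sorted for live TdTomato+ cells. Age-matched *Lepr-TdT* mice, labelled by Cre under *Lepr* control, gave crushed whole bone, digested with collagenase type I and sorted for live TdTomato+ cells that were CD45-, Ter119- and CD31-. Lineage thus cannot be told apart from tissue, digestion, sort and tamoxifen. Single cells were sorted into 96-well plates, 8 for *Grem1* (numbered 1, 2 and 4 to 9) and 2 for *Lepr*. The labels do not name the animals on a plate or which plates held articular or growth plate cells, so the plate was the replicate and p-values measure only the spread between plates, which may be technical.

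Of 768 *Grem1*-lineage wells, 684 cells had at least 350 detected genes and were kept, as were 160 of 162 *Lepr*-lineage wells. Kept cells of a *Grem1* plate held 133289 to 179071 UMIs, and those of the *Lepr* plates 64310 and 59981. All 96 well barcodes recurred on every *Grem1* plate, since the barcode marks the well and not the cell. *Grem1*-lineage cells were divided by 3 genes other than the members. A cell was called *Clu*-high (407 cells) where its UMIs of *Clu*, the extracellular chaperone clusterin, plus *1500015O10Rik*, also called *Ecrg4*, a secreted peptide precursor, exceeded those of *Cnmd*, the cartilage anti-angiogenic protein chondromodulin. It was called *Cnmd*-high (277 cells) where they did not. The median *Cnmd* count was 5 UMIs in *Clu*-high and 58 UMIs in *Cnmd*-high cells, and 3 cells were ties. Median depth was 1218 UMIs in *Clu*-high, 2201 in *Cnmd*-high and 505 in *Lepr*-lineage cells.

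Markers were checked on the same sums. Of the articular markers, 5 of 8 were testable between the groups and all 5 (*Abi3bp*, *Angptl7*, *Creb5*, *Cytl1* and *Gas1*) were higher in *Clu*-high cells, where 19.9% of all 1071 tested genes were. Of the growth plate and hypertrophic markers, 5 of 6 (*Alpl*, *C1qtnf3*, *Epyc*, *Fam180a* and *Fscn1*) were lower in *Clu*-high cells, where 21.5% of all tested genes were. *Col10a1*, the collagen of hypertrophic chondrocytes, was higher. *Angptl7*, *Creb5*, *Abi3bp* and *Gas1* held 16, 17, 45 and 66 UMIs in *Cnmd*-high cells. *Epyc*, *Fscn1* and *Fam180a* held 27, 27 and 32 in *Clu*-high cells. These genes passed the filter on low counts through the group where they were high, so their direction is no independent support. The summed osteoblast markers ranged from 1034 to 48817 CPM over plates in *Clu*-high cells. Of 5 tested, *Col1a2* was higher and *Alpl*, also in the growth plate list, lower there. Both counts are near the shares of all tested genes (19.9% and 21.5%). The call of *Col1a2* was lost with total counts (edgeR adjusted p = 0.056). The 6 haematopoietic markers ranged from 0 to 5116 CPM in *Clu*-high and from 10.9 to 5896 CPM in *Cnmd*-high cells. *Angpt1*, *Esm1*, *Clec3b*, *Egfl7* and *Emcn*, markers of marrow stroma, fibroblasts and endothelium, were at 0 in the *Grem1* lineage, but other markers of these lists were present. The summed fibroblast markers ranged from 51.0 to 645 CPM in *Clu*-high and from 0 to 82.2 CPM in *Cnmd*-high cells. Marrow stromal markers reached 120 and 52.4 CPM in these groups, and endothelial markers 69.8 and 25.2 CPM. None of the marrow stromal, fibroblast, haematopoietic or endothelial markers passed the filter on low counts between the groups. All 4 tested marrow stromal markers were higher in the *Lepr* lineage, where 12.2% of all 2944 tested genes were, and so were 3 of 5 haematopoietic markers (*Camp*, *Cd52* and *Fcer1g*), whose list summed to 20206 and 29451 CPM on the *Lepr* plates. The marrow stromal markers *Esm1*, *Adipoq*, *Ebf3* and *Cxcl12* held 0, 4, 9 and 24 UMIs in the *Grem1* lineage. They passed the filter through the *Lepr* plates, so their direction is no independent support. Neither of the 2 fibroblast markers tested (*Col3a1* and *Dpt*) was called between the lineages, and no endothelial marker could be tested. Of the articular markers 5 of 7 (*Angptl7*, *Creb5*, *Cytl1*, *Erg* and *Gas1*) were lower in the *Lepr* lineage, where 16.8% of all tested genes were. So were 6 of 6 growth plate and hypertrophic markers. *Erg*, *C1qtnf3*, *Epyc* and *Fam180a* held 0 UMIs in the *Lepr* lineage and passed the filter through the *Grem1* plates. The part of these other cell types in the results below was not tested.

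*Cilp* and *Cilp2* lie on different chromosomes, and their sequences were compared. Whether reads of either gene were counted for the other was not tested. In GRCm38 with GENCODE vM21, *Cilp* (ENSMUSG00000042254.14) spans chr9:65265180-65280605 on the plus strand, and its coding transcript has 10 exons. *Cilp2* (ENSMUSG00000044006.8) spans chr8:69880369-69887687 on the minus strand, with 8 exons. No annotated gene on either strand overlaps either of them. The coding sequences, 3750 and 3486 bases long, aligned over 3411 bases with 59.5% identity, and the longest run that both transcripts share exactly was 14 bases. The 90-base window with the most identical positions in the ungapped parts of the coding alignment is shown. It lies in the last exon of each gene, at chr9:65279632-65279721 for *Cilp* and at chr8:69881277-69881366 for *Cilp2*. Capitals mark the 68 positions at which both carry the same base, and each sequence reads 5′ to 3′ on its coding strand.
Cilp: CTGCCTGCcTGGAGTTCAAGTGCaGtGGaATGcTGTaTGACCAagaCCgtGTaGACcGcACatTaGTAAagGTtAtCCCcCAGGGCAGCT
Cilp2: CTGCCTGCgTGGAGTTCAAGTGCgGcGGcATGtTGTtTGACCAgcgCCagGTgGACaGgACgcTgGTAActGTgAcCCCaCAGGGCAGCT
Within the ungapped parts of the alignment no stretch of 58 bases, the length of the cDNA read, matched at more than 46 positions. The windows end 884 bases (*Cilp*) and 908 bases (*Cilp2*) before the 3′ end of their transcripts. Where reads fell within the transcripts was not examined.

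In the *Lepr* lineage both paralogues were lower than in the *Grem1* lineage. Scaled by the trimmed mean of M-values (TMM), *Cilp* measured 4545 CPM (counts scaled to a common library total) on the lowest *Grem1* plate, 6446 CPM at the median and 10569 CPM on the highest. On the *Lepr* plates it measured 651 CPM on plate 1 and 0 on plate 2. *Cilp2* measured 477, 644 and 1294 CPM at the lowest, median and highest *Grem1* plate, against 53.1 CPM on *Lepr* plate 1 and 14.03 CPM on plate 2. Neither gene overlapped between the lineages, as was true of 20.8% of all tested genes in this direction. The log2 difference, *Lepr* minus *Grem1*, was -4.34 ± 0.86 (SE; adjusted p = 0.00137) for *Cilp* and -4.45 ± 0.57 (adjusted p = 3.25e-05) for *Cilp2* in a quasi-likelihood fit with edgeR, adjusted by Benjamini-Hochberg over all genes. Both were thus among the 16.8% of genes called lower in the *Lepr* lineage. In such plate sums, fewer cells of a type and less RNA per cell cannot be told apart.

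The *Lepr* value of *Cilp* rested on few cells of 1 plate. All 49 *Cilp* UMIs lay in 12 of the 74 cells of plate 1, and 39 of them in 3 cells with 15, 13 and 11 UMIs. The cell with 15 UMIs also held 3 *Cilp2*, 36 *Clu*, 31 *1500015O10Rik* and 151 UMIs of *Cytl1*, a secreted cytokine-like protein abundant in cartilage, beside 5 UMIs of *Cxcl12*, the marrow stromal chemokine. The cell with 13 *Cilp* UMIs held 19 *Clu*, 4 *Cytl1*, 14 *Col1a1* and 4 *Cxcl12* UMIs. The cell with 11 held 54 *Cytl1*, 8 *Col2a1*, 4 *Acan* and 9 *Cxcl12* UMIs. The first and the last of these cells thus carried many *Cytl1* UMIs, and the other as few as the remaining 9 *Cilp*-positive cells (2 to 8). The cell with 13 had no *Col2a1*, *Acan* or *Cnmd* UMI, and the cell with 15 no *Acan* or *Cnmd* UMI. Of the matrix glycoprotein *Comp*, the cell with 13 held 9 UMIs, that with 15 held 4 and that with 11 held 1. The remaining 9 cells held 1 or 2 *Cilp* UMIs each and 9 to 50 of *Cxcl12*. Plate 2 had no *Cilp* UMI in 86 cells, which allows a share of up to 3.49% of cells with a UMI. The floor of 3 counts on that plate is 50.02 CPM of its unscaled total, and the unscaled *Grem1*-lineage level was 110-fold that floor. The floor takes UMIs as independent, whereas those of plate 1 lay mostly in 3 cells, so the fold is no firm bound. Without *Lepr* plate 2 the log2 difference of *Cilp* was -3.40 (adjusted p = 0.000376), and that of *Cilp2* was -3.88. Without *Lepr* plate 1 it was -5.76 for *Cilp2*, and for *Cilp* only the floor applies. *Cilp2* had 5 UMIs in 3 *Lepr*-lineage cells, and only the cell with 15 *Cilp* UMIs held both paralogues.

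Within the *Grem1* lineage both paralogues were higher in *Clu*-high cells, *Cilp* by 19.8-fold and *Cilp2* by 12.8-fold. *Cilp* in *Clu*-high cells measured 12349 CPM on the lowest plate, 16283 CPM at the median and 22037 CPM on the highest. In *Cnmd*-high cells it measured 336, 800 and 1477 CPM. *Cilp2* in *Clu*-high cells measured 1220, 1793 and 2452 CPM at the lowest, median and highest plate. The *Cnmd*-high sums measured 84.0, 106 and 301 CPM. For each gene every *Clu*-high sum lay above every *Cnmd*-high sum, as was true of 7.75% of tested genes. The log2 difference, *Clu*-high minus *Cnmd*-high, was 4.31 ± 0.28 (SE; edgeR adjusted p = 1.94e-10) for *Cilp* and 3.68 ± 0.25 (edgeR adjusted p = 3.43e-10) for *Cilp2*. With total counts in place of TMM, a scaling added after seeing the data, the median log2 difference of all genes moved from -0.01 to -0.38, and *Cilp* stood at 3.97 and *Cilp2* at 3.33.

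**Figure D1:**
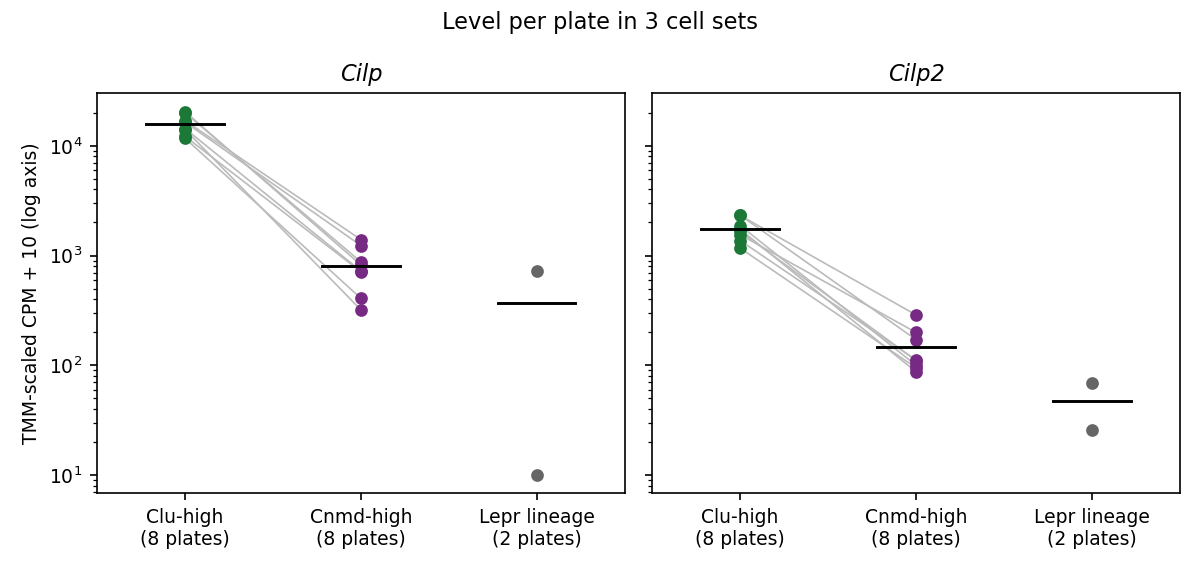
Level of *Cilp* (left) and *Cilp2* (right) per plate, as CPM scaled by TMM over all 3 cell sets, plus 10, on a log axis. Points are plates, grey lines join the groups of 1 plate and black bars are means. *Clu*-high sums of *Cilp* lie between 11678 and 20441 CPM, and *Lepr* plate 2 has 0.

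The group effect was larger for *Cilp* than for its paralogue. On each plate the log2 ratio of *Clu*-high to *Cnmd*-high sums (CPM + 10) was taken for both genes. Its mean was 4.41 ± 0.60 (SD, n = 8 plates) for *Cilp* and 3.69 ± 0.51 for *Cilp2*. The ratio of *Cilp* exceeded that of *Cilp2* on 8 of 8 plates, by 0.72 ± 0.36 on the log2 scale (p = 0.00781 when plate signs were flipped in an exact permutation test, two-sided, which is the least that 8 plates allow). The excess ran from 0.12 on plate 8 to 1.14 on plate 1. Nearly all of the excess on plate 8 came from the added 10 CPM. Without it the *Cnmd*-high level there was 7.29% of the *Clu*-high level for *Cilp* and 7.32% for *Cilp2*. The *Cnmd*-high sums of *Cilp2* held only 5 to 18 UMIs per plate. The *Cnmd*-high level of *Cilp* was 2.25% to 8.18% of the *Clu*-high level over plates, and that of *Cilp2* 4.58% to 12.3%.

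**Figure D2:**
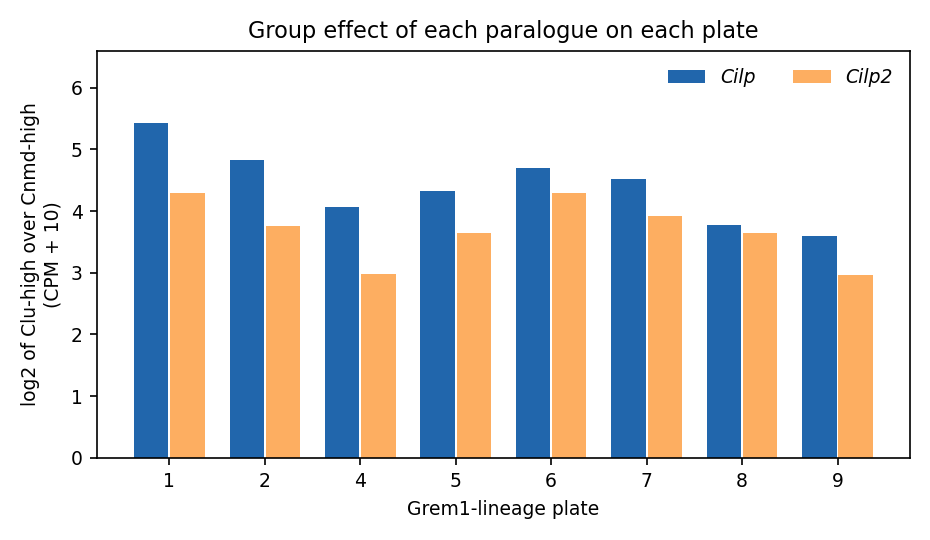
log2 ratio of the *Clu*-high over the *Cnmd*-high sum (TMM-scaled CPM + 10) of *Cilp* (blue) and *Cilp2* (orange) on each of the 8 *Grem1*-lineage plates, 1 bar per gene and plate. The *Cilp* bar is the taller on all 8 plates, least so on plate 8.

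The proportion of the paralogues differed between plates. In *Clu*-high cells there were 12.3 to 19.9 *Cilp2* CPM per 100 *Cilp* CPM on plates 1, 2 and 4, and 8.07 to 9.13 on plates 5 to 9. The same ratio in *Cnmd*-high cells was 25 to 40.6 on plates 1, 2 and 4, and 8.33 to 13.6 on plates 5 to 9. Both ratios were thus higher on all 3 of the former plates, and since this division was seen in the data and carries no label, it was not tested. The group difference held in both sets of plates taken alone. The log2 difference of *Cilp* was 4.77 on plates 1, 2 and 4 and 4.15 on plates 5 to 9, and that of *Cilp2* was 3.67 and 3.70. Over all kept cells and per kilobase of transcript, unscaled *Cilp* was 9.20 times *Cilp2* in *Clu*-high cells, 6.23 times in *Cnmd*-high cells and 10.2 times in *Lepr*-lineage cells. The last ratio rests on 49 *Cilp* and 5 *Cilp2* UMIs, and *Lepr* plate 2 alone held 0 *Cilp* and 1 *Cilp2* UMI.

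The 3 cell sets were also set in order. *Clu*-high cells exceeded *Lepr*-lineage cells by 5.43 ± 1.06 (SE) on the log2 scale for *Cilp* (edgeR adjusted p = 0.000983) and by 5.45 ± 0.52 for *Cilp2* (edgeR adjusted p = 3.19e-06), where 21.2% of all 1542 tested genes were called higher. *Cnmd*-high cells and the *Lepr* lineage stood next to each other in both orders, and neither gene was called between them. The *Cnmd*-high sums of *Cilp2* were 77.2 to 277 CPM (scaled over the 3 sets). The *Lepr* plates stood at 58.5 and 15.5 CPM, which rest on 4 and 1 UMIs. How many of all genes separate in this way was not counted. The *Cilp* sums overlapped *Lepr* plate 1. Between *Cnmd*-high cells and the *Lepr* lineage the log2 difference was 1.15 ± 0.79 for *Cilp* (edgeR adjusted p = 0.287). For *Cilp2* it was 1.79 ± 0.69 (edgeR adjusted p = 0.0604), beside 32.8% of 1951 tested genes called in either direction. These comparisons were added after seeing the data, and all of them share the *Lepr* plates.

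By cell, *Cilp* was found in nearly all *Clu*-high cells. A *Cilp* UMI was present in 384 of 407 *Clu*-high cells (94.3%, 95% exact binomial interval 91.6% to 96.4%), in 207 of 277 *Cnmd*-high cells (74.7%, 69.2% to 79.7%) and in 12 of 160 *Lepr*-lineage cells (7.50%, 3.94% to 12.7%). The counts per cell parted further. The median was 12 UMIs in *Clu*-high and 1 UMI in *Cnmd*-high cells, and 232 *Clu*-high cells but 1 *Cnmd*-high cell held 10 or more. *Cilp2* was found in 279 of 407 *Clu*-high cells (68.6%, 63.8% to 73.0%), in 58 of 277 *Cnmd*-high cells (20.9%, 16.3% to 26.2%) and in 3 of 160 *Lepr*-lineage cells (1.88%, 0.388% to 5.38%). The intervals cover counting error only.

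Over plates, the share with a *Cilp* UMI was 94.5% ± 4.69 (SD, n = 8) in *Clu*-high and 74.5% ± 15.8 in *Cnmd*-high cells, and it was the higher in *Clu*-high cells on 7 of 8 plates (exact permutation by sign flips, two-sided, p = 0.0156). On plate 9 all 39 *Cnmd*-high cells held a *Cilp* UMI. For *Cilp2* the shares were 68.0% ± 8.10 and 21.6% ± 10.6, higher in *Clu*-high cells on 8 of 8 plates (same exact test, p = 0.00781; 0.0156 for both genes after adjustment over the 2 genes). Since *Cnmd*-high cells were the deeper, each cell was also thinned to 796 UMIs, which left out 58 *Clu*-high and 10 *Cnmd*-high cells. The shares then were 90.4% ± 2.90 and 45.5% ± 18.1 for *Cilp*, and 60.1% ± 9.10 and 11% ± 7.48 for *Cilp2*, each higher in *Clu*-high cells on 8 of 8 plates.

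**Figure D3:**
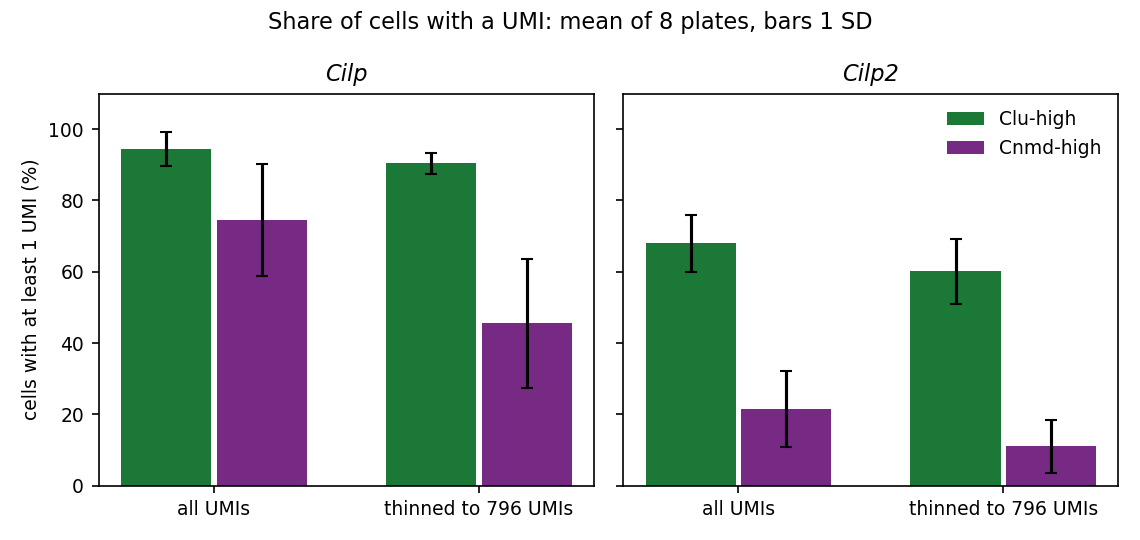
Share of *Clu*-high (green) and *Cnmd*-high (purple) cells with at least 1 UMI of *Cilp* (left) or *Cilp2* (right), as mean ± 1 SD of 8 plates, with all UMIs and after thinning each cell to 796 UMIs. The *Cilp* share of *Cnmd*-high cells fell from 74.5% to 45.5% with thinning, and that of *Clu*-high cells from 94.5% to 90.4%.

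At 272 UMIs per cell, a depth that 144 of 160 *Lepr*-lineage cells reached, *Cilp* was present in 77.4% of *Clu*-high, 16.2% of *Cnmd*-high (12.1% to 21.1%) and 3.47% of *Lepr*-lineage cells (1.14% to 7.92%). The *Lepr* share is given as the background of cells from another tissue. At the same depth *Cilp2* was present in 27.8%, 5.05% (2.79% to 8.33%) and 0 of 144 cells. These intervals cover counting error over cells pooled from plates and do not test the sets against each other.

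Whether the paralogues mark the same cells was then asked cell by cell. Of the 684 *Grem1*-lineage cells, 309 held both, 282 *Cilp* alone, 28 *Cilp2* alone and 65 neither. *Cilp2*-positive cells were thus mostly *Cilp*-positive (91.7%, beside 86.4% of all cells), whereas 52.3% of *Cilp*-positive cells held *Cilp2*. In *Clu*-high cells 266 held both, 118 *Cilp* alone, 13 *Cilp2* alone and 10 neither, beside 263 cells expected to hold both from the shares of each gene on each plate. In *Cnmd*-high cells 43 held both, beside 43.9 expected. Over both groups together 309 cells held both, beside 291 expected from plate shares that ignore the group. Both genes were higher in *Clu*-high cells, and an excess over both groups cannot be told apart from that difference. Only 23 *Clu*-high cells lacked *Cilp*, which leaves the overlap little room to depart from that expected.

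**Figure D4:**
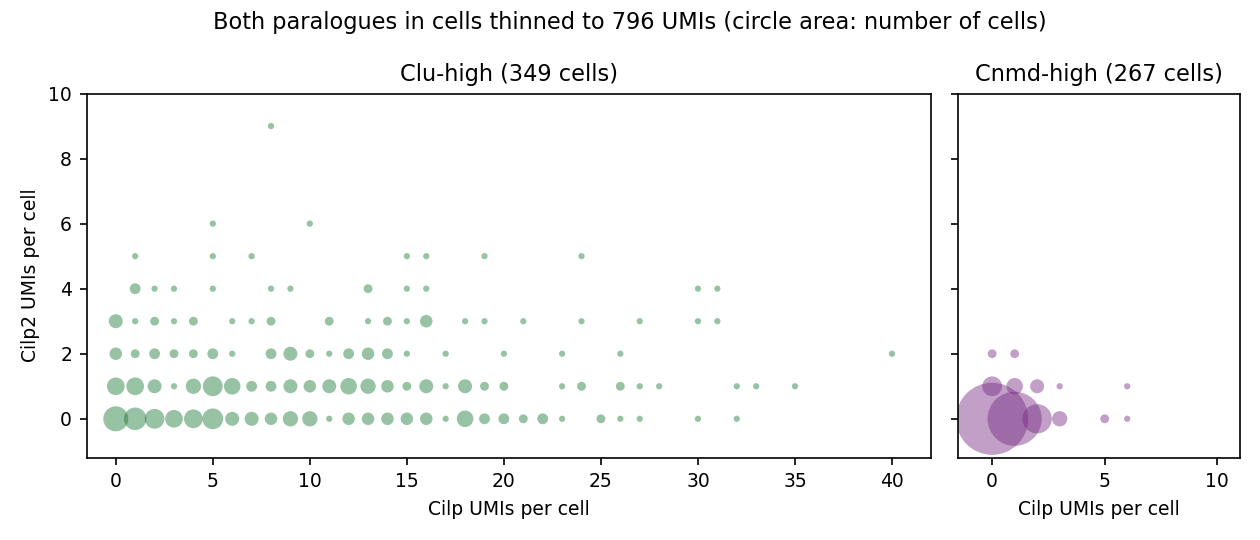
UMIs of *Cilp* (x axis) and *Cilp2* (y axis) per cell in 349 *Clu*-high and 267 *Cnmd*-high cells thinned to 796 UMIs. Circle area gives the number of cells at each pair of values. *Clu*-high cells spread up to 40 *Cilp* UMIs at 0 to 9 *Cilp2* UMIs, and *Cnmd*-high cells lie near the origin.

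The log odds ratio of holding a UMI of both genes was taken per plate (natural log, 0.5 added to each cell count) and tested over plates. In all *Grem1*-lineage cells it was 0.74 ± 0.90 (SD, n = 8) and above 0 on 6 of 8 plates (exact permutation by sign flips, two-sided, p = 0.0625; adjusted over the 3 cell sets 0.105). In *Clu*-high cells it was 0.53 ± 0.73, above 0 on 6 of 8 plates (same exact test, p = 0.0703; adjusted 0.105). In *Cnmd*-high cells it was -0.28 ± 0.96, above 0 on 4 of 8 plates (same exact test, p = 0.414, also after adjustment). The difference between the groups was 0.81 ± 1.38 (exact test, p = 0.125). On plate 6 every *Clu*-high cell and on plate 9 every *Cnmd*-high cell held *Cilp*, so that the values of these plates (0.51 and -0.91) come from the added 0.5 and the *Cilp2* share and not from joint detection. Without them, an alternative added after seeing the data, the log odds ratio was 0.53 ± 0.79 in *Clu*-high cells, above 0 on 5 of 7 plates (same exact test, adjusted p = 0.188), and -0.19 ± 0.997 in *Cnmd*-high cells, above 0 on 4 of 7 (same exact test, adjusted p = 0.609). The difference between the groups was then 1.002 ± 1.57 over 6 plates (exact test, p = 0.188). None of these passed the threshold of 0.05, for which 8 plates allow a smallest p of 0.00781.

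With cells thinned to equal depth in a single random draw, the association over all cells passed the threshold. With depth as a term in a logistic model it did not (0.79, exact sign-flip permutation test, adjusted p = 0.141). After thinning to 796 UMIs the log odds ratio was 1.498 ± 0.86 in all *Grem1*-lineage cells, above 0 on 7 of 8 plates (exact sign-flip permutation test, adjusted p = 0.0469; 0.0234 to 0.211 over the alternatives). It was 0.44 ± 0.63 within *Clu*-high cells (adjusted p = 0.129 by the same exact test) and 0.52 ± 1.03 within *Cnmd*-high cells (adjusted p = 0.180 by the same exact test). The value over all cells also holds the difference between the groups, so only those within groups bear on the same cells. The mean in *Cnmd*-high cells was thus below 0 with all UMIs and above 0 after thinning, and neither value passed the test. Of the thinned *Clu*-high cells 60.8% of those with and 51.5% of those without a *Cilp* UMI held *Cilp2*. These shares were 13.1% and 8.28% in *Cnmd*-high cells.

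**Figure D5:**
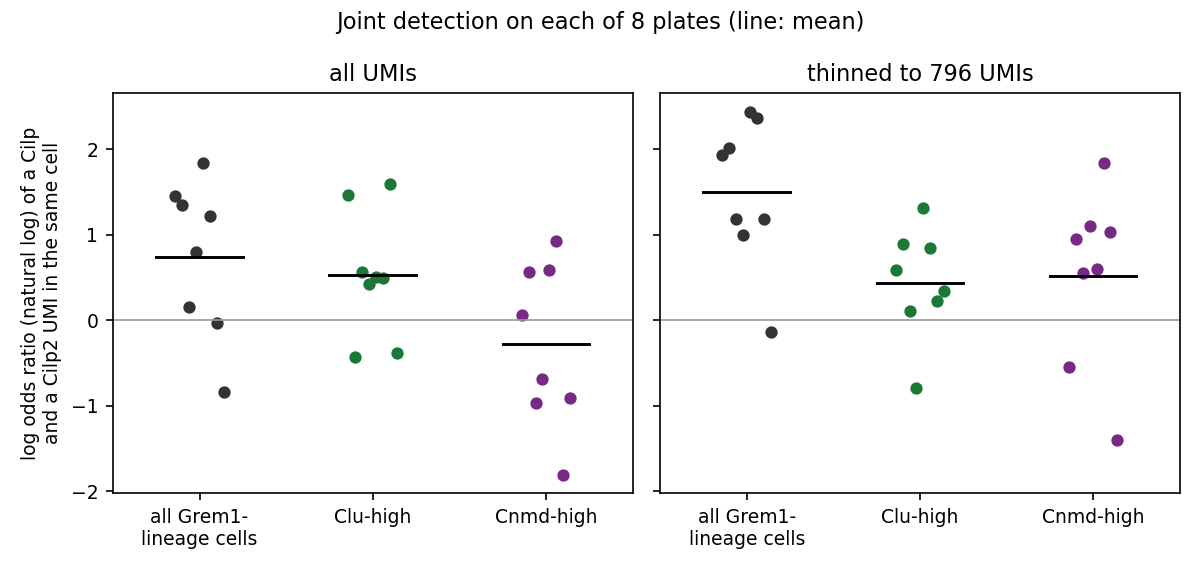
Natural log odds ratio of a *Cilp* and a *Cilp2* UMI in the same cell, 1 point per plate with the mean as a line, over all *Grem1*-lineage cells and within each group, with all UMIs (left) and after thinning to 796 UMIs (right). The mean over all cells rises from 0.74 to 1.498 with thinning, and the mean of *Cnmd*-high cells moves from -0.28 to 0.52.

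The share of *Clu*-high cells with *Cilp2* was also followed over the amount of *Cilp*. At 796 UMIs, *Cilp2* was present in 51.5% of 33 cells with no *Cilp* UMI (exact interval 33.5% to 69.2%), 53.1% of 49 cells with 1 to 2, 52.5% of 59 cells with 3 to 5, 63.6% of 55 cells with 6 to 9, 71.2% of 66 cells with 10 to 14 and 60.9% of 87 cells with 15 to 40 (49.9% to 71.2%). The intervals of the lowest and the highest class overlapped. Across cells of a plate at this depth, Spearman's rho between the paralogues averaged 0.09 (-0.19 to 0.33 over 8 plates) in *Clu*-high cells, 0.11 (-0.15 to 0.36) in *Cnmd*-high cells and 0.42 (0.23 to 0.54) over both groups. These are descriptions of sparse counts from shared plates and carry no test, and the value over both groups also holds the difference between them. A division at the median was added after seeing the data. *Cilp2* was then present in 66.7% of *Clu*-high cells with *Cilp* above the median of their plate and 54.2% of the others, and in *Cnmd*-high cells in 16.7% and 7.34%. The log odds ratio of this division was 0.47 ± 0.70 in *Clu*-high cells (exact sign-flip permutation test, adjusted p = 0.0938) and 0.97 ± 1.06 in *Cnmd*-high cells (same exact test, adjusted p = 0.0352; 0.0352 to 0.797 over the alternatives for these cells). On 6 of the 8 plates the median of *Cnmd*-high cells was under 1 UMI and this division was that of the thinned cells by any *Cilp* UMI, so that its values differ from those above only through plate 8 (2.98 in place of 1.03) and plate 9 (0.32 in place of -1.41).

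The genes most like each paralogue were sought over plate sums and across cells. Over the 18 sums of both groups and the *Lepr* plates, Pearson's r of log2(CPM + 10) with *Cilp* was highest for *1500015O10Rik* (0.97), *Cdo1*, a cysteine dioxygenase (0.97), the chemokine scavenger *Ackr3* (0.94), the receptor *Adgrg2* (0.93) and the small proteoglycan *Dcn* (0.93), of 1899 genes. *Cilp2* came sixth, at 0.93. With *Cilp2* it was highest for *Gas1*, a membrane protein that binds hedgehog ligands (0.97), *Dcn* (0.97), *Cdo1* (0.96), *Ackr3* (0.93) and *Cilp* (0.93). These sums share plates and scaling, and r over them also holds the difference between the cell sets. *1500015O10Rik* was used to split the cells, as was *Clu*, which is named below. Across *Clu*-high cells of a plate, the mean r with *Cilp* was highest for *Gas1* (0.34), *Cytl1* (0.31), *Clu* (0.26), *Cdo1* (0.22) and the tetraspanin *Cd9* (0.22). With *Cilp2* it was highest for *Fmod*, a collagen-binding proteoglycan (0.21), *Comp*, a pentameric matrix glycoprotein (0.20), *Colec12*, a scavenger receptor (0.20), the matrix protein *Ecm1* (0.20) and the cyclin *Ccnd2* (0.20). The 5 nearest genes across cells thus had no gene in common. On the lowest plate r was below 0 for *Clu* (-0.004) and *Cd9* (-0.06) with *Cilp*, and for *Fmod* (-0.17) and *Ccnd2* (-0.01) with *Cilp2*. These ranks come from sparse counts and do not tell whether the paralogues mark different cells. Of 2576 genes, *Cilp2* ranked 67 for *Cilp* and *Cilp* ranked 95 for *Cilp2*, with r = 0.10.

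Other matrix genes were counted in the same fit, in which 19.9% of all tested genes were higher and 21.5% lower in *Clu*-high cells. Of 13 cartilage collagens and proteoglycans 12 were tested, of which 2 were higher and 9 lower in *Clu*-high cells, with a median log2 difference of -1.43 beside -0.01 over all genes. The 2 that were higher with the paralogues were *Dcn* (3.68 ± 0.18, SE) and *Chad*, which binds collagen and integrins (1.76 ± 0.24). Lower were *Col2a1* (-1.95 ± 0.18), *Col11a1* (-1.26 ± 0.18) and *Acan*, the large aggregating proteoglycan (-0.99 ± 0.20), among others. Of 18 matrix glycoproteins 9 were tested, of which 4 were higher and 2 lower, the latter near the share of all genes, with a median of -0.20. *Abi3bp* (3.91 ± 0.23), *Cytl1* (2.86 ± 0.21) and *Ecm2* (2.26 ± 0.24) were higher, as was *Comp* (0.59 ± 0.14), whose call was lost with total counts (0.25, edgeR adjusted p = 0.123) and held with DESeq2 size factors (0.63, edgeR adjusted p = 0.00132). *Efemp2*, which takes part in elastic fibre assembly, was lower (-0.78 ± 0.26), as was *Emilin1* (-0.96 ± 0.27).

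Genes of the processes tied to CILP were counted in the same fit. Of 7 phosphate and pyrophosphate genes 3 were tested. *Enpp1*, which makes pyrophosphate outside the cell, was higher in *Clu*-high cells (1.42 ± 0.20), as was *Ank*, which carries pyrophosphate or its precursor out of the cell (2.56 ± 0.31). *Alpl*, the phosphatase that breaks pyrophosphate down, was lower (-1.07 ± 0.29). *Abcc6* was at 0 in both lineages. Of 22 TGF-beta and BMP pathway genes 5 were tested and 2 were higher (19.9% of all tested genes were), the ligand *Bmp2* (3.34 ± 0.34) and the decoy receptor *Bambi* (2.10 ± 0.27). None was lower. In the *Lepr* lineage, *Alpl*, *Ank* and *Enpp1* were lower than in the *Grem1* lineage. Of the 14 TGF-beta and BMP genes tested there, 4 were higher (*Bmp4*, *Chrdl1*, *Fst* and *Fstl1*) and 5 lower (*Bambi*, *Bmp2*, *Chrdl2*, *Ctgf* and *Gdf10*), beside 12.2% of all tested genes higher and 16.8% lower. Of the matrix glycoproteins 4 of 14 were higher (*Ecm1*, *Fbln1*, *Fbln5* and *Fbn1*) and 7 lower. Of the collagens and proteoglycans 11 of 12 were lower, with a median log2 difference of -7.00 beside -0.11 over all genes. With total counts the median of all genes moved to 0.45, and the calls of *Alpl*, *Bambi*, *Chrdl2* and *Emilin1* were lost, at edgeR adjusted p = 0.172, 0.071, 0.061 and 0.193.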

How the data were processed

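The deposited tables hold UMI counts per gene and well, one for each lineage, which the authors made from reads on mm10 (UMI-tools, STAR, featureCounts and SAMtools per the labels; versions are not given in the sources used here). The *Grem1* table lists genes up to *Gm5763* alphabetically, after 1 incomplete final row was left out, so library sizes cover the 29183 shared genes. Empty wells and doublets were not called. Strand use in counting is not given in the sources used here. Counts of kept cells were summed per plate and group (at least 10 cells) and tested with edgeR 4.0.16 (TMM, filterByExpr, quasi-likelihood, R 4.3.3; Benjamini-Hochberg threshold 0.05), with DESeq2 1.42.0, other scalings, splits and left-out plates as alternatives. A gene scarce in a group could pass the filter only through the other, which favours a call in that direction. Per-cell measures were tested by exact sign-flip permutation over plates. The scripts were tested on simulated data. Both sums of a plate deviate together (r 0.18 to 0.44 over 1071 genes, mean 0.29; other plates -0.04), so the plate pairs them. Of the shared symbols, 28372 matched GENCODE vM21. The members and lists were chosen with earlier results of these data known. Named genes were the members, the split genes, list genes past the threshold with the highest mean CPM (up to 5 per list and comparison) or at 0, and the 5 nearest genes per measure; counts of 5 or fewer were named in full, and the genes of single *Lepr* cells, *Col10a1*, *Col1a2* and the marker genes were named after their values were seen.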

Additional observations from a re-analysis of the deposited data

Results flagged for a closer look

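In *Clu*-high cells of plate 1, 84.0% of cells held a *Cilp* UMI, against 94.0% to 100% on the other 7 plates, far enough below to stand apart by Dixon's test. Of the 16 sets of 8 plates examined this was the only flag, and chance flags about 1 in 20 groups.

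The 84 *Grem1*-lineage wells under the minimum of 350 genes, which entered only the alternatives with no gene minimum, held 390 *Cilp* and 55 *Cilp2* UMIs. A *Cilp* UMI was present in 75.0% of these wells (exact interval 64.4% to 83.8%) and a *Cilp2* UMI in 27.4% (18.2% to 38.2%), above the 7.50% and 1.88% of *Lepr*-lineage cells, at a median depth of 501.5 and 505 UMIs. Their unscaled *Cilp* level was 9798 CPM, between the 742 CPM of *Cnmd*-high and the 11614 CPM of *Clu*-high cells, and that of *Cilp2* was 1382 CPM, beside 124 and 1311 CPM.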

How the results depend on the processing

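Of 160 alternative values with a test for the paralogues, 151 kept their direction and their side of the threshold, among them all for the difference between the *Grem1*-lineage groups. There *Cilp* ranged from 3.26 (split by *Clu* alone) to 4.77 and *Cilp2* from 2.67 to 3.86 on the log2 scale, and from 4.24 to 4.45 and 3.61 to 3.86 with each plate left out. With the plate as a replicate block the values were 4.40 and 3.70, and 512 genes were called in place of 443, so that the pairing changed no call reported for the paralogues. Genes called numbered 722 with no filter on low counts and 262 on plates 1, 2 and 4 only, and 379 to 427 with each plate left out. With total counts 120 were higher and 425 lower, in place of 213 and 230, and between lineages 773 and 288 in place of 358 and 495. The excess of *Cilp* over *Cilp2* ranged from 0.64 to 0.99 over pseudocounts, and from 0.66 to 0.80 with each plate left out.

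Between lineages, *Cilp* on plates 1 and 2 of each lineage with no block was -3.85 (edgeR adjusted p = 0.052, the highest of the alternatives), and 451 genes were called there, 489 with the plate number as a replicate block and 853 over all plates, where fewer plates entered. The number is not known to pair plates of different mice. With each plate left out, 529 (without *Lepr* plate 2) to 850 genes were called, *Cilp2* ranged from -5.76 to -3.88 and *Cilp* from -12.64 to -3.40, where -12.64 is fitted against a lone plate at 0, assumed to vary like the others, and is no estimate of size.

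Joint detection depended on how cells were counted, and the cause was not tested. Within each group the logistic model with depth could be fitted on 7 of 8 plates. Over all cells, adjusted p fell below 0.05 with thinning (1.498), at 2 or more *Cilp* UMIs (0.98) and for *Cilp* above the median (0.70). In *Cnmd*-high cells the sign turned with thinning (0.52), and above the median (0.97), which is the same division on 6 of 8 plates. The difference between groups turned to -0.078 and -0.50 under the same alternatives, and passed with no gene minimum (0.89, exact p = 0.0313; 0.0313 to 0.844 over the alternatives). With each plate left out it ranged from 0.44 to 1.06. *Cilp2*, with a median of 1 UMI per *Clu*-high cell, limits what per-cell association these data can show.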
